A study of Mus musculus with 6 samples.

Results

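The transcripts of 10 cytokine genes of the IL-6, IL-12 and IL-10 families were examined in macrophages that had met live Candida albicans. The genes were taken by symbol from the deposited expression table, which lists 54532 genes, and each symbol was found once. They are Il6, Lif and Osm of the IL-6 family, Il12a, Il12b, Il23a, Il27 and Ebi3 of the IL-12 family, and Il10 and Il19 of the IL-10 family. All 10 passed the filter on low values and were among the 8882 genes tested.

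These cytokines are signals that macrophages release when they sense microbes, and all of them act through receptors that use Janus kinases and STAT proteins. IL-6, LIF and oncostatin M share the receptor chain gp130. IL-12, IL-23 and IL-27 are each built from a pair of chains, so that the transcripts of 2 genes are needed for each: p35 from Il12a with p40 from Il12b for IL-12, p19 from Il23a with the same p40 for IL-23, and p28 from Il27 with EBI3 for IL-27. IL-12 and IL-23 direct T cells and NK cells towards responses that matter against fungi, whereas IL-10 and IL-27 are known to restrain inflammation, IL-10 by acting through STAT3 on the macrophage itself.

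Cells of C57BL/6J mice were compared in 2 groups, wild-type (WT, replicates 1, 2 and 3) and progranulin knock out (PGRN KO, replicates 4, 5 and 6), both kept in DMEM with serum, and both challenged for 6 hours with the fungus at 1 fungal cell for each of the 2000000 cells in a well. Every library came from challenged cells, including the WT libraries that are titled control, so no value here measures induction over rest. The labels name macrophages of the peritoneal cavity as the source, while the text of the study describes bone marrow-derived macrophages for its sequencing, and also a different ratio of fungus to cells. The labels were followed for both. The study matched mice for sex and age, but the ages and sexes behind these libraries were not given for the sequencing. The methods of the study name different suppliers for the WT and the knockout mice, so that genotype and supplier cannot be told apart. Nothing states that the libraries of a group came from separate mice or cultures, and p-values measure the spread between these libraries, which may be technical.

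The libraries held 15996786 to 17551619 fragments, as recovered from the FPKM. Grn, which encodes progranulin, was at 323 to 337 FPKM (fragments per kilobase of gene model, scaled to library size) in WT, whereas 1, 0 and 1 fragments were counted in PGRN KO replicates 4, 5 and 6. PGRN KO replicate 6 stood apart from the other libraries and received a sample quality weight of 0.0899, against 1.07 to 3.79 in the other 5, and results are therefore also given without it. General macrophage markers were present throughout, with Adgre1 at 162 to 195 FPKM and Cd68 at 1103 to 1344 FPKM. Of 8 such markers 6 did not pass the test described below, Mertk was significantly higher in PGRN KO (1.14 to 1.56 FPKM in WT, 2.91 to 3.84 FPKM in PGRN KO) and Csf1r significantly lower (31.0 to 33.4 and 23.6 to 25.3 FPKM). Of the markers of resident peritoneal macrophages, Gata6 was at 3.78 to 5.07 FPKM and Prg4 at 10.4 to 16.2 FPKM over the 6 libraries, whereas Timd4 did not exceed 0.204 FPKM. Of the 4 resident markers tested, 2 were significantly higher in PGRN KO, Icam2 (2.94 to 3.26 FPKM in WT, 4.49 to 5.43 FPKM in PGRN KO) and Lyve1 (3.47 to 5.26 and 7.10 to 10.4 FPKM), and none was lower.

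The summed levels of marker genes of other cell types differed between the groups. Which cells these transcripts came from was not measured. The summed level of 6 B cell markers was 4.79 to 6.08 FPKM in WT and 19.0 to 24.1 FPKM in PGRN KO. All 3 that could be tested were significantly higher, as were 10.4% of all tested genes. The summed level of 6 mast cell markers was 2.23 to 3.19 FPKM in WT and 9.31 to 13.9 FPKM in PGRN KO, with Ms4a2 at 0 in every library. Both tested mast cell markers, Cma1 and Tpsb2, were significantly higher, against the same 10.4% of all tested genes. The 6 T and NK cell markers summed to 1.08 to 1.44 and 2.10 to 2.89 FPKM, and none reached the filter. The 7 neutrophil markers summed to 48.8 to 53.2 and 21.4 to 26.3 FPKM, nearly all of it S100a8, while Ly6g and Elane were at 0 in every library. The 6 dendritic cell markers summed to 27.4 to 34.6 and 15.9 to 19.3 FPKM, mainly Ccr7, with Cd209a at 0. In bulk RNA fewer cells of a type and less RNA per cell cannot be told apart, and the part of these markers, those of macrophages included, in the results that follow was not tested.

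To compare the cytokines between genotypes, log2(FPKM + 1) was tested with limma across all 8882 genes, with Benjamini-Hochberg adjustment over all of them and a threshold of 0.05. Of the 10 cytokine genes, 3 were significantly lower in PGRN KO (Il10, Lif and Ebi3), 1 was significantly higher (Il27), and 6 did not pass. Over all tested genes 24.2% passed, 13.8% lower and 10.4% higher. On the TPM scale, on which every library has the same sum, 60.3% of all called genes were higher in PGRN KO against 42.8% with the deposited scaling, while the log2 fold change had a median of 0.014 against -0.031 over the tested genes, and the 4 cytokine calls and their directions were the same on both. The log2 fold changes of Il10, Lif and Il27 were also 1 or more in size. Of all 8882 tested genes, 2.62% both passed the threshold and had a change of that size. The 4 called genes were the only members whose groups did not overlap, with 3 lower and 1 higher, and 48.8% of all tested genes had groups that did not overlap, 27.6% lower and 21.2% higher. At an unadjusted p under 0.05 there were the same 4 genes. The count of members past the threshold was 2 without WT replicate 1 and 3 to 5 in the other 14 alternatives.

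**Figure D1:**
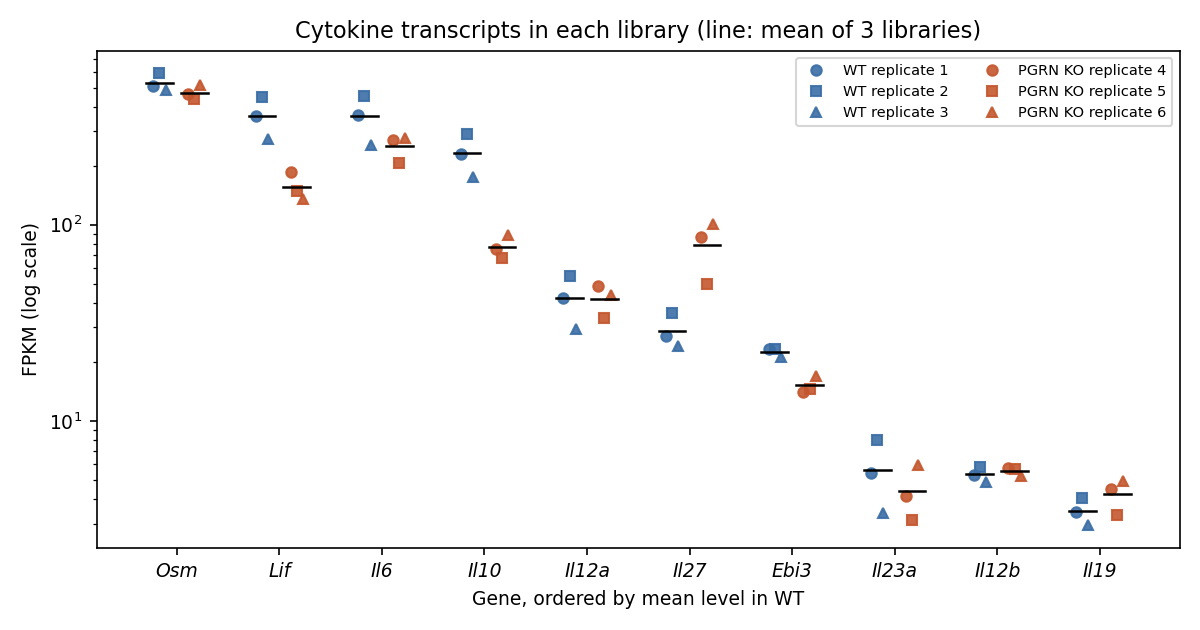
FPKM on a log axis of the 10 cytokine genes in each of the 3 WT libraries (blue) and 3 PGRN KO libraries (orange), with a line at the mean of each group and genes ordered by their mean in WT. Il10, Lif and Ebi3 have their 3 PGRN KO points under every WT point and Il27 has them above, whereas the groups of the other 6 genes overlap.

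Levels per gene length spanned a wide range. In WT the order of mean FPKM was Osm, Lif, Il6, Il10, Il12a, Il27, Ebi3, Il23a, Il12b and Il19, from 529 FPKM for Osm to 3.48 FPKM for Il19. Osm was at percentile 99.0 of the tested genes and Il19 at percentile 35.3. The ranges of neighbours over the WT libraries overlapped for Lif and Il6, Il6 and Il10, Il12a and Il27, and Il23a and Il12b. Within each WT library, however, Il6 lay above Il10 and Il12a above Il27. The order of Lif and Il6 and that of Il23a and Il12b changed between WT libraries. In PGRN KO the order of means was Osm, Il6, Lif, Il27, Il10, Il12a, Ebi3, Il12b, Il23a and Il19, with overlap of Il27 and Il10, of Il12b and Il23a, and of Il23a and Il19. Thus Il27 and Il10, which were at 28.9 and 232 FPKM in WT on average, were at 79.0 and 77.2 FPKM in PGRN KO.

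Il10 (ENSMUSG00000016529, chromosome 1, 131019845 to 131024974, GRCm38) encodes the main anti-inflammatory cytokine of macrophages. It was at 229, 289 and 176 FPKM in the WT libraries and at 75.1, 68.0 and 88.6 FPKM in the PGRN KO libraries, in the order of replicates 1 to 6 used throughout. The lowest WT library was thus above the highest PGRN KO library. Its mean fell from 232 ± 56.8 to 77.2 ± 10.5 FPKM (SD, n = 3 each), or 33.4% of the WT level, and the log2 fold change was -1.55 ± 0.19 (SE; limma adjusted p 0.00340). It rested on 1687 to 5607 fragments per library. The call was kept in all 15 alternatives (adjusted p 0.000136 to 0.0241), and without PGRN KO replicate 6 the log2 fold change was -1.65.

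Il19 (ENSMUSG00000016524, chromosome 1, 130932656 to 130940115), which encodes another member of the IL-10 family, lies 79729 bases from Il10 with no gene of the table between them. It was at 3.43, 4.06 and 2.94 FPKM in WT and at 4.52, 3.31 and 4.94 FPKM in PGRN KO, from 61 to 98 fragments per library. The groups overlapped, and the log2 fold change was 0.23 (95% interval -0.14 to 0.59, limma adjusted p 0.314). Hence the 2 neighbouring genes did not share a call, although the interval for Il19 leaves room for a difference in either direction.

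Lif (ENSMUSG00000034394, chromosome 11, 4257557 to 4272514) encodes leukemia inhibitory factor, a cytokine of the IL-6 family. It was at 357, 449 and 275 FPKM in WT and at 185, 148 and 135 FPKM in PGRN KO. No library of PGRN KO reached the lowest WT library. Its mean fell from 360 ± 87.1 to 156 ± 26.3 FPKM (SD, n = 3 each). On the log2 scale the difference was -1.19 ± 0.20 (SE; limma adjusted p 0.00868). The call was kept in all 15 alternatives (adjusted p 0.00118 to 0.0444), and the log2 fold change was -1.09 without PGRN KO replicate 6.

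Osm (ENSMUSG00000058755, chromosome 11, 4236420 to 4241026) encodes oncostatin M and lies 16530 bases from Lif, with no gene of the table between them. It was at 510, 590 and 488 FPKM in WT and at 462, 440 and 512 FPKM in PGRN KO, where replicate 6 lay above WT replicates 1 and 3. The log2 fold change was -0.17 (95% interval -0.44 to 0.11, limma adjusted p 0.335). The ratio of Lif to Osm FPKM within a library was 0.699, 0.760 and 0.563 in WT and 0.401, 0.336 and 0.263 in PGRN KO.

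Il6 (ENSMUSG00000025746, chromosome 5, 30013114 to 30019981) encodes a major inflammatory cytokine. It was at 362, 455 and 255 FPKM in WT and at 270, 206 and 276 FPKM in PGRN KO. WT replicate 3 lay below PGRN KO replicates 4 and 6, so the groups overlapped, and the WT libraries themselves spread by a coefficient of variation of 27.9%. The log2 fold change was -0.48 ± 0.22 (SE, 95% interval -1.01 to 0.05) with a limma adjusted p of 0.157, and it was negative in all 15 alternatives (-0.70 to -0.29), 1 of which passed the threshold, the fit with sample quality weights (adjusted p 0.0403).

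**Figure D2:**
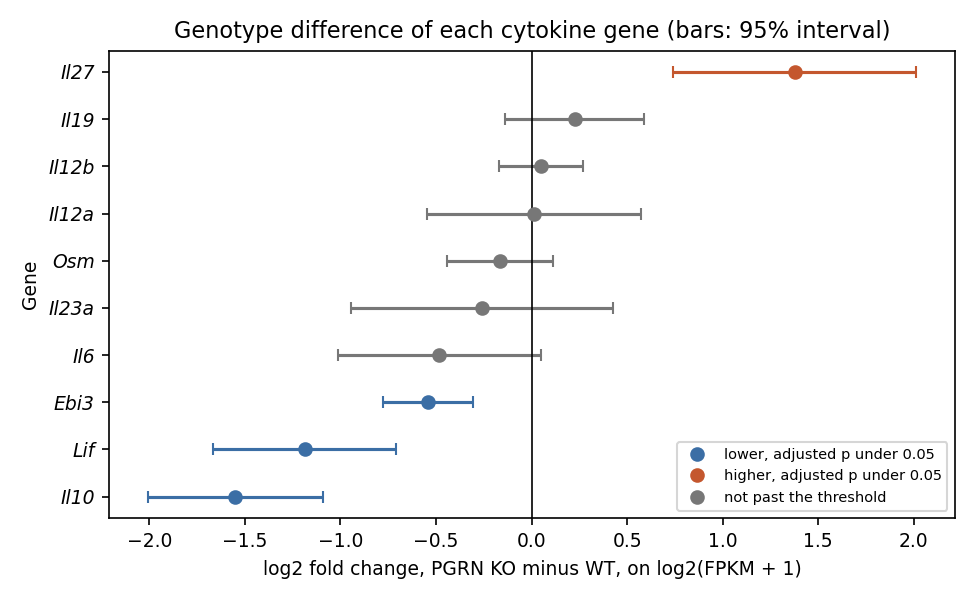
Log2 fold change, PGRN KO minus WT, on the log2(FPKM + 1) scale for each of the 10 cytokine genes, with 95% intervals from limma as bars and colours for genes past an adjusted p of 0.05. The intervals of Il10, Lif and Ebi3 lie below 0 and that of Il27 above 0, while the other 6 intervals include 0.

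Sequence upstream of the start site was available from RefSeq (GRCm38.p6) for 6 of the 10 genes, in 7 windows, and not for Osm, Il23a, Il27 and Il10. The windows ran from 250 bases before to 50 bases after the start site. Matches were searched on both strands to GGG and TTTCC with any 2 bases between them for NF-kB, ATTGCNNAA for C/EBP, TGANTCA for AP-1, TTTC and TTTC with any 2 bases between them for the interferon-stimulated response element and TATAAA for a TATA box. The 250 bases before the start site are shown for Il6, which held the largest number of different matches, and for Lif and Ebi3, the called genes with a window. They are chr5:30012864-30013113, chr11:4257318-4257567 and chr17:55952373-55952622, all on the plus strand, written 5′ to 3′ with matches in capitals.
Il6: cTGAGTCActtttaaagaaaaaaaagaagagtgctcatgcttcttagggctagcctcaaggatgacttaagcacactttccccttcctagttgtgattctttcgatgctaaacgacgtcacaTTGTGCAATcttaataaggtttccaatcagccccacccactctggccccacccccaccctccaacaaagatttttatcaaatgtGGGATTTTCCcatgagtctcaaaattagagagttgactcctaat
Lif: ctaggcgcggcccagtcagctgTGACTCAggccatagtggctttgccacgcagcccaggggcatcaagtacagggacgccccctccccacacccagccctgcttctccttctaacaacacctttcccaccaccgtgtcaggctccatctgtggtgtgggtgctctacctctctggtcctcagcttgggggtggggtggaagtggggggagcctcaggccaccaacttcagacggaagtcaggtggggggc
Ebi3: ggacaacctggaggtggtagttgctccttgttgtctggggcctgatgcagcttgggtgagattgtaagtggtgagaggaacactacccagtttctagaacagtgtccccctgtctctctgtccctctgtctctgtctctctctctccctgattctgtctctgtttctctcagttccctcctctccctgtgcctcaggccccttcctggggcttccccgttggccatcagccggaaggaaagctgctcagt
The Il6 window held an AP-1, a C/EBP and an NF-kB match, which start at -249, -128 and -44 from the start site. The Lif window held an AP-1 match at -228, and the Ebi3 window held none of these letters. The NF-kB letters were found in 1 of the 7 windows and in 1.63% of all 32851 promoter windows, the C/EBP letters in 1 and 2.18%, the AP-1 letters in 2 and 7.81%, the interferon-stimulated response element, in Il19, in 1 and 3.44%, and TATAAA in 0 and 13.6%. A match describes letters and is not evidence of binding.

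Il27 (ENSMUSG00000044701, chromosome 7, 126589010 to 126594941) encodes p28, the chain particular to IL-27. It was at 27.0, 35.4 and 24.2 FPKM in WT and at 86.1, 49.9 and 101 FPKM in PGRN KO. All PGRN KO libraries lay above all WT libraries. Its mean rose from 28.9 ± 5.83 to 79.0 ± 26.2 FPKM (SD, n = 3 each). On the log2 scale the difference was 1.38 ± 0.27 (SE; limma adjusted p 0.0134). The call was lost without WT replicate 1 (adjusted p 0.0595) and without WT replicate 3 (0.0567), and kept in the other 13 alternatives, with a log2 fold change of 1.17 to 1.67 over all 15. It was 1.17 without PGRN KO replicate 6 (adjusted p 0.0140). Its gene model overlaps 103 bases of Apobr on the opposite strand. Apobr was at 15.2 to 16.6 FPKM in WT and 20.5 to 31.8 FPKM in PGRN KO and was itself called higher (limma adjusted p 0.0285). Fragments in the overlap cannot be assigned unless the counting used strand, a setting that the sources used here do not give.

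Ebi3 (ENSMUSG00000003206, chromosome 17, 55952640 to 55957022) encodes the partner chain of p28. It moved the other way from Il27. It was at 23.2, 23.2 and 21.1 FPKM in WT and at 14.1, 14.6 and 16.9 FPKM in PGRN KO, and the groups did not overlap. Its mean fell from 22.5 ± 1.2 to 15.2 ± 1.5 FPKM (SD, n = 3 each). On the log2 scale the difference was -0.54 ± 0.10 (SE; limma adjusted p 0.0110). The call was lost without WT replicate 1 (adjusted p 0.0641) and without WT replicate 2 (0.0573), and kept in the other 13 alternatives. Without PGRN KO replicate 6 the log2 fold change was -0.62. The gene model overlaps the predicted antisense gene Gm16712 over 2252 bases, which was at 0.679 to 2.04 FPKM over the 6 libraries. The limit on assigning fragments given for Il27 holds here too, and it carries into the ratio of Il27 to Ebi3.

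The chains of IL-12 and IL-23 did not pass the threshold. Il12a (ENSMUSG00000027776, chromosome 3, 68690644 to 68698547), for p35, was at 42.6, 54.8 and 29.6 FPKM in WT and at 48.6, 33.4 and 43.7 FPKM in PGRN KO. Its groups overlapped widely, with a log2 fold change of 0.01 (95% interval -0.55 to 0.57, limma adjusted p 0.972) whose sign turned in 5 of 15 alternatives. Il12b (ENSMUSG00000004296, chromosome 11, 44400063 to 44414033), for the shared chain p40, was the steadiest of the 10 genes within PGRN KO and was at 5.32, 5.84 and 4.90 FPKM in WT and at 5.78, 5.67 and 5.27 FPKM in PGRN KO. Its log2 fold change was 0.05 (95% interval -0.17 to 0.27, limma adjusted p 0.719), and the sign turned in 2 of 15 alternatives. Il23a (ENSMUSG00000025383, chromosome 10, 128296139 to 128298752), for p19, was at 5.43, 7.97 and 3.40 FPKM in WT and at 4.14, 3.13 and 6.00 FPKM in PGRN KO. It varied most within WT, by a coefficient of variation of 40.9%, and its log2 fold change of -0.26 had a 95% interval from -0.94 to 0.43 (limma adjusted p 0.542).

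Since the cytokines of the IL-12 family need both of their chains, the level of 1 chain was set against the other within each library, a ratio that does not depend on how libraries are scaled. Il27 FPKM was 1.17, 1.53 and 1.15 times Ebi3 FPKM in WT and 6.10, 3.43 and 5.97 times Ebi3 FPKM in PGRN KO, a 3.94-fold higher ratio on average. Il12a FPKM was 8.0, 9.38 and 6.03 times Il12b FPKM in WT and 8.41, 5.90 and 8.31 times in PGRN KO, with overlapping groups. Il23a FPKM was 1.02, 1.36 and 0.694 times Il12b FPKM in WT and 0.715, 0.552 and 1.14 times in PGRN KO, with overlapping groups as well. Hence p40 was the scarcer transcript of IL-12 in every library, whereas neither chain of IL-23 was the scarcer one throughout.

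Cytokines of opposed action were compared in the same way. Il10 FPKM was 43.1, 49.5 and 35.9 times Il12b FPKM in WT and 13, 12.0 and 16.8 times in PGRN KO, so that the ratio fell from 42.5 to 13.8 on the geometric mean. Il6 FPKM was 1.58, 1.57 and 1.45 times Il10 FPKM in WT and 3.59, 3.03 and 3.12 times in PGRN KO, a 2.11-fold higher ratio. This ratio was steadier than either gene within WT, with an SD of 0.067 on the log2 scale. Il10 stands in both ratios, and neither Il12b nor Il6 passed the threshold. Neither ratio is therefore a reading independent of the Il10 call. In all, 6 ratios were computed. In an exact two-sided permutation test over libraries 4 of them, Il27/Ebi3, Il10/Il12b, Il6/Il10 and Lif/Osm, gave p = 0.1. That is the smallest that 3 against 3 libraries allow, and the adjusted p was 0.15 over the 6 ratios. Il23a/Il12b gave an exact p of 0.5 and Il12a/Il12b an exact p of 0.9. For Il27/Ebi3 the result was set beforehand, since both genes had already separated the groups, in opposite directions. Lif/Osm joins the called Lif to Osm, which did not pass. Neither of these ratios is a reading independent of the gene calls.

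**Figure D3:**
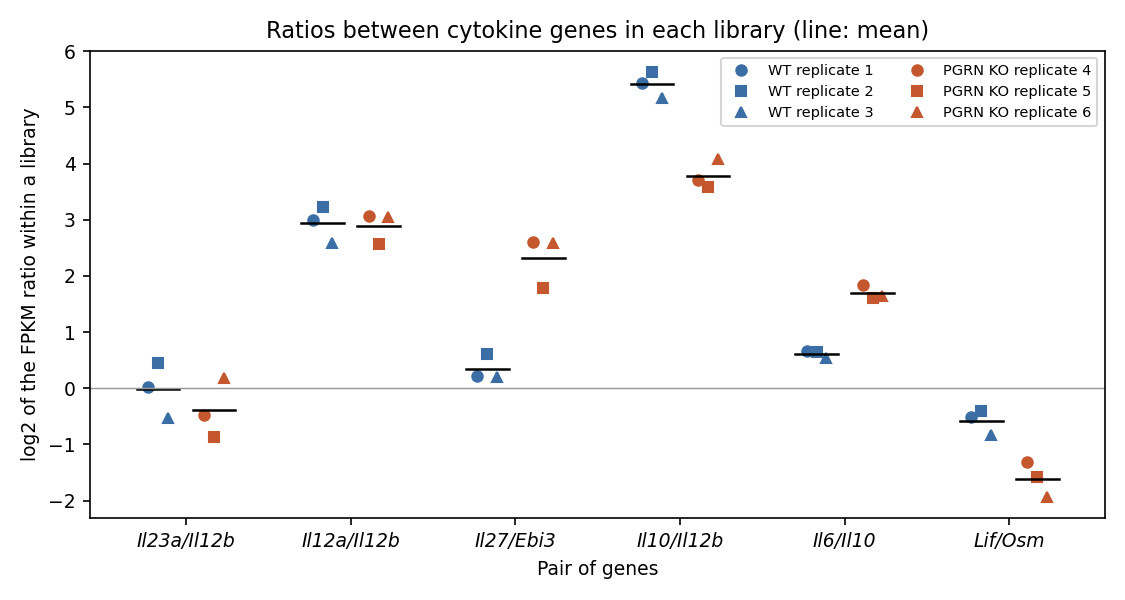
Log2 of the ratio of FPKM between 2 cytokine genes in each library, for the 6 pairs, with WT in blue, PGRN KO in orange and a line at the mean of 3 libraries. The groups lie apart for Il27/Ebi3, Il10/Il12b, Il6/Il10 and Lif/Osm, with group means of 0.34 and 2.32 for Il27/Ebi3, whereas those of Il23a/Il12b and Il12a/Il12b overlap.

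The cytokine genes shared much of their variation within WT. Replicate 2 had the highest and replicate 3 the lowest value for 9 of the 10 genes, Ebi3 being the exception, as for 26.4% of all tested genes. On the TPM scale it was 8 of 10 genes, without Osm and Ebi3, against 7.62% of tested genes. In PGRN KO replicate 6 was highest and replicate 5 lowest for 6 of the 10 genes, against 25.8% of tested genes, but for 1 of 10, against 10.7%, on the TPM scale. These orders of replicates were not planned beforehand, so the shares are a description and not a test. The 10 genes cannot be taken as independent readings of the genotypes. As a description over the 6 libraries, which share their genotypes, the tested genes closest to Osm in log2(FPKM + 1) were Socs3, Tnip1 and Vnn3 (Pearson's r 0.992, 0.980 and 0.979), and those closest to Il10 were Ggnbp2, Fpr1 and F3 (0.998, 0.997 and 0.996).

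The transcripts also shared a feature of sequence. AU-rich words in the 3′ untranslated region are known to shorten the life of cytokine transcripts. In the longest basic protein-coding transcript of GENCODE M21, the word ATTTA occurred a median of 6 times in the 10 genes and 2 times in 7605 tested genes with a region of at least 100 bases. Per kilobase of the region the medians were 6.87 and 1.43. The longer word TTATTTATT was found in 4 of the 10 genes, 2 times each in Lif and Il27 and 1 time each in Il12a and Il23a, and in 8.35% of tested genes. Called and uncalled members both held these words, with 6 ATTTA in Il10 and 10 in Il6, against 1 in Ebi3 and 1 in Il19.

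Next, the genes that act with these cytokines were examined. Further ligands of the 3 families were hardly present. Of 12 such genes 10 did not reach the filter, and Il20, Il24, Il31, Ctf2, Ifnl2 and Ifnl3 were listed at 0 in every library. Clcf1 and Il22 were tested, and neither passed, with Il22, a cytokine that acts on epithelia, at 5.92, 4.51 and 3.64 FPKM in WT and at 3.54, 3.24 and 3.39 FPKM in PGRN KO, without overlap (limma adjusted p 0.126).

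Of 18 receptor genes 7 were tested, of which 1 was significantly higher and 1 significantly lower, a share of 28.6% near the 24.2% of all tested genes. Il27ra, the receptor chain particular to IL-27, was at 1.47, 1.49 and 1.49 FPKM in WT and at 2.33, 2.66 and 2.35 FPKM in PGRN KO, a log2 difference of 0.47 (limma adjusted p 0.0119). Thus it rose like Il27, but at a low level. Lifr, which binds LIF, fell from 2.76 ± 0.146 to 1.52 ± 0.437 FPKM (SD, n = 3 each, limma adjusted p 0.0253). The chains of the IL-10 receptor did not pass, with Il10ra at 16.6 to 23.6 FPKM in WT and 20.8 to 25.1 FPKM in PGRN KO (adjusted p 0.328) and Il10rb at 12.5 to 13.3 and 11.5 to 12.8 FPKM. Il6st, for gp130, was at 4.27 to 4.53 and 2.02 to 3.85 FPKM (adjusted p 0.111). The count of receptor genes fell to 0 without WT replicates 1, 2 and 3 in turn, each time with 2 genes at an unadjusted limma p under 0.05. It fell to 1 without PGRN KO replicate 5 and on the TPM scale. No receptor gene was called lower in either, so that the call of Lifr was lost.

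Among 10 genes for Janus kinases, STAT proteins and feedback inhibitors, 8 were tested, 1 was higher and 1 was lower, a share of 25.0% against 24.2% of all tested genes. Tyk2, a kinase of the IL-12 and IL-10 receptors, rose from 2.50 ± 0.0868 to 4.41 ± 0.574 FPKM (SD, n = 3 each, limma adjusted p 0.00866). Jak1, a kinase that serves the receptors of all 3 families except those of IL-12 and IL-23, fell from 63.0 ± 2.84 to 40.9 ± 5.99 FPKM (SD, n = 3 each, limma adjusted p 0.0146). Stat3, the main STAT of IL-6 and IL-10, was at 101 to 108 FPKM in WT and 84.7 to 99.6 FPKM in PGRN KO and did not pass (adjusted p 0.180). Socs3, a target of STAT3 that limits IL-6 signals, was at 809 to 1009 and 705 to 854 FPKM (adjusted p 0.269). The count was 1 when WT replicates 1, 2 and 3 were left out in turn and on the TPM scale, each time 1 gene that was higher. In each of these settings no gene was called lower, so that the call of Jak1 was lost.

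Of 24 transcription factors known from these cytokine genes, all tested, 2 were higher and 7 lower (37.5% called, against 24.2% of all tested genes, of which 13.8% were lower and 10.4% higher), with a median log2 fold change of -0.32 against -0.031 over all tested genes. Fos, a subunit of AP-1, fell from 68.3 ± 1.47 to 36.2 ± 1.30 FPKM, Cebpd, of the C/EBP family, from 4.74 ± 0.228 to 1.92 ± 0.173 FPKM, and Atf3, which represses Il6 and Il12b, from 1156 ± 57.7 to 734 ± 59.7 FPKM (SD, n = 3 each, limma adjusted p 0.00140, 0.00142 and 0.00818). The other lower genes were Jun, Nfkbiz, Nfkb1 and Irf8, named outside the rule for named genes to complete the count. Nfkbiz, a cofactor needed for Il6, was at 418, 500 and 334 FPKM in WT and at 270, 222 and 198 FPKM in PGRN KO. The higher genes were Irf5, a driver of inflammatory cytokines, from 35.5 ± 3.41 to 62.3 ± 9.65 FPKM, and Maf, a factor that binds Il10, from 0.942 ± 0.228 to 1.68 ± 0.165 FPKM. Maf averaged under 1 FPKM in WT and passed the filter, which takes the mean over all 6 libraries, only through its PGRN KO level. The 9 calls became 2 and 5 when WT replicates 1 and 2 were left out in turn, whereas they became 17 when PGRN KO replicate 6 was left out.

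**Figure D4:**
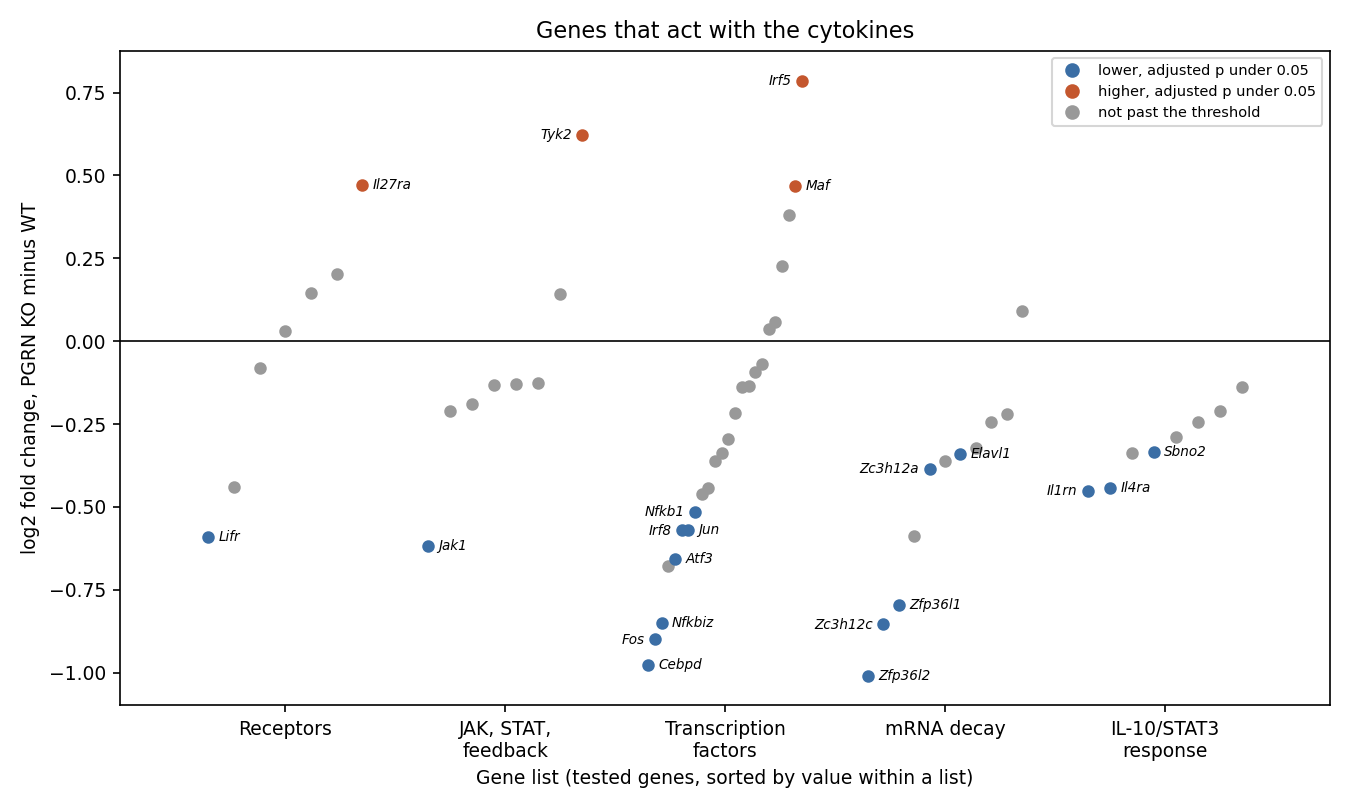
Log2 fold change, PGRN KO minus WT, of the tested genes in 5 lists of genes that act with the cytokines, 1 point per gene, sorted within a list. Coloured and named points passed an adjusted p of 0.05, among them Irf5 at 0.79 and Zfp36l2 at -1.01, and gray points did not.

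All 11 genes for proteins that bind cytokine transcripts and set their stability were tested, and 5 were lower and 0 higher (45.5% called, against 24.2% of all tested genes and 13.8% lower), with a median log2 fold change of -0.36 against -0.031. Zfp36l2 and Zfp36l1, which bind AU-rich words and promote decay, fell from 16.1 ± 0.605 to 7.51 ± 0.557 FPKM and from 19.5 ± 1.04 to 10.9 ± 2.18 FPKM (SD, n = 3 each, limma adjusted p 0.00140 and 0.00989). Elavl1, which protects such transcripts, fell from 7.41 ± 0.289 to 5.64 ± 0.195 FPKM. The other 2, named to complete the count, were Zc3h12a, for an RNase that cuts Il6 transcripts, at 338 ± 24.9 and 258 ± 14.1 FPKM, and Zc3h12c (adjusted p 0.0499). Zfp36 itself was at 348, 435 and 271 FPKM in WT and at 315, 252 and 311 FPKM in PGRN KO and did not pass (adjusted p 0.373). The count was 1, 2 and 2 when WT replicates 1, 2 and 3 were left out in turn, 2 when either replicate 4 or 5 of PGRN KO was, and 8 when replicate 6 was.

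Finally, 8 genes that IL-10 or STAT3 is known to raise in macrophages were tested, of which 4 also stand in the lists above. Of these, 3 were lower and 0 higher (37.5% called, against 24.2% of all tested genes and 13.8% lower). All 8 had a negative log2 fold change, as had 4736 of the 8882 tested genes, with a median of -0.31 against -0.031. Il1rn, for the IL-1 receptor antagonist, fell from 1853 ± 129 to 1352 ± 39.0 FPKM, Il4ra from 59.1 ± 0.763 to 43.2 ± 2.33 FPKM and Sbno2 from 37.5 ± 0.651 to 29.6 ± 1.92 FPKM (SD, n = 3 each, limma adjusted p 0.0259, 0.0117 and 0.0321). The count was 0 without WT replicates 1, 2 and 3 in turn, with 4, 4 and 5 genes at an unadjusted limma p under 0.05, 1 when replicate 5 of PGRN KO was left out and 5 when replicate 6 was.

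**Figure D5:**
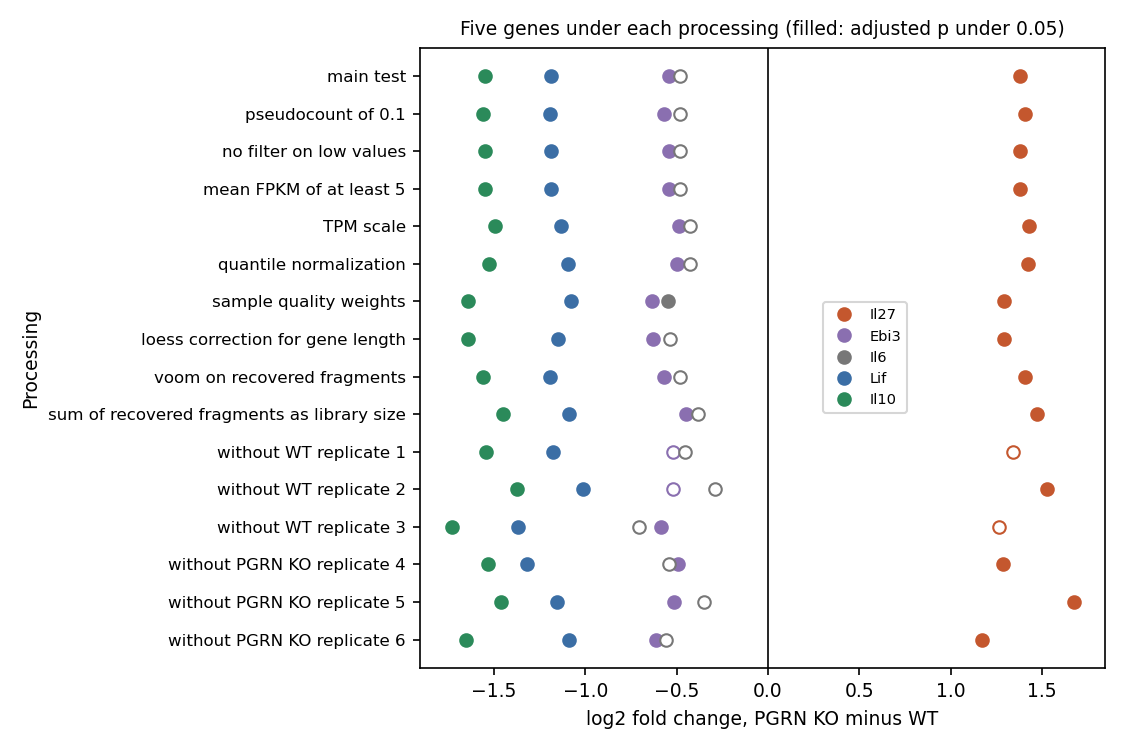
Log2 fold change, PGRN KO minus WT, of Il27, Ebi3, Il6, Lif and Il10 in the main test and in 15 alternatives, with filled points where the adjusted p was under 0.05. Il10 stays between -1.73 and -1.38 and Lif between -1.37 and -1.01 with filled points throughout, whereas Il27 and Ebi3 each have 2 open points, all without a WT library.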

How the data were processed

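The deposited table holds 1 column of FPKM for each of the 6 libraries, which the authors made from paired-end reads of poly(A) RNA after removing reads of low quality or with adaptors. The methods of the study name HISAT and HTSeq, whereas the submitters' processing notes name HISAT2 2.0.5, featureCounts 1.5.0-p3, DESeq2 1.20.0 and GRCm38, with no roles. The table's coordinates were the same as in GENCODE M21 for all 10 cytokine genes.

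FPKM was multiplied by gene length and divided by a step estimated for each library, which was taken as 1 fragment. This gave whole fragments (tolerance 0.001 of a fragment) for 100.0% of values above 0. The library size behind the deposited FPKM was inferred from the same step. The sum of the fragments differs from that size, which was 0.925 to 1.09 times as large. Tested genes had a median of 430 fragments per library. Depth covers counting error only.

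The test used log2(FPKM + 1), which understates the change of low genes, on 8882 genes whose mean FPKM reached 1. PGRN KO was compared with WT with limma 3.58.1 in R 4.3.3 (empirical Bayes with a mean-variance trend, two-sided, no covariates), which replaces the count test of the study. Adjusted p-values are Benjamini-Hochberg values over all tested genes, and 95% intervals are limma's. The fit was tested on simulated data, in 5 draws of 8882 genes, of which 200 were given a log2 change of 1. It recovered 86.7% of the changed genes, and 7.5% of its calls were false, more than the threshold on the adjusted p allows. The simulation used a single dispersion of 0.02, so these rates hold for that setting only. Ratios within a library were compared by exact permutation tests in scipy 1.17.1.

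The members and gene lists were chosen with earlier results of these data known, and 1 gene of the list of kinases and STAT proteins is not reported here. The rule for named genes took Grn, the 10 cytokine genes, up to 3 called genes per direction and list with the smallest adjusted p, and cell type markers. It also took the 3 genes most alike to the member with the highest level and to the one with the smallest adjusted p. Other genes were named outside the rule. Among them were Il22, Il10ra, Il10rb, Il6st, Stat3 and Zfp36, which did not pass, and Apobr and Gm16712, which overlap cytokine genes. Alternatives were a pseudocount of 0.1, no filter, a mean FPKM of at least 5, a TPM scale, quantile normalization, sample quality weights, a loess correction for gene length (span 0.5), voom on recovered fragments, leaving out each library and, chosen after seeing the data, the sum of recovered fragments as library size.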

Additional observations from a re-analysis of the deposited data

How the results depend on the processing

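No paired analysis was possible because the labels give no pairing or batch that links a WT library to a PGRN KO library. Of 149 values of cytokine genes under an alternative, 137 kept direction and side of the threshold, 4 lost their call, 1 gained it and 7 changed sign, none of the 7 being called. Il12a turned to -0.0038 with sample quality weights, to -0.074 with the loess correction for gene length, to -0.217 without WT replicate 3, and to -0.099 and -0.025 without PGRN KO replicates 4 and 6. Il12b turned to -0.026 with the loess correction and to -0.0017 without WT replicate 3. Without 1 library Il12a ranged from -0.217 to 0.218 and Il12b from -0.0017 to 0.105. Il19 has no value with a mean FPKM of at least 5, since it falls below that filter.

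The 2151 genes called over all tested genes became 1366 with no filter, where more genes are adjusted together, 4225 with sample quality weights, and 713 to 3668 without 1 library. The share that was higher, 42.8%, was 60.3% on the TPM scale and 62.9% with the sum of recovered fragments as library size. The 4 cytokine genes were 2 to 4 without 1 library and 4 to 5 otherwise. The 2 receptor genes became 1 with no filter and on the TPM scale, 0 with a mean FPKM of at least 5 in limma (0 also at an unadjusted p under 0.05), since both called genes lie below that filter, and 0 to 3 without 1 library. The 2 genes for Janus kinases, STAT proteins and feedback became 1 with a mean FPKM of at least 5, 1 on the TPM scale and 1 to 2 without 1 library. The 9 transcription factors became 19 with sample quality weights, 15 with the loess correction and 2 to 17 without 1 library. The 5 mRNA decay genes became 3 with no filter, on the TPM scale, with quantile normalization and with the sum of recovered fragments, 8 with sample quality weights, and 1 to 8 without 1 library. The 3 response genes of IL-10 and STAT3 became 6 with sample quality weights and 0 to 5 without 1 library. For the other settings the cause was not tested.

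The differences in log2 ratio between genotypes moved by less than 1 SD of the libraries under quantile normalization and the loess correction. Without 1 library Il27/Ebi3 ranged from 1.83 to 2.25, Il10/Il12b from -1.77 to -1.51, Il6/Il10 from 1.00 to 1.13, Lif/Osm from -1.17 to -0.87, Il23a/Il12b from -0.65 to -0.13 and Il12a/Il12b from -0.22 to 0.12. More fragments did not always give a smaller error, since the SE was 0.094 for Il12b with 170 to 211 fragments per library and 0.224 for Il6 with 9487 to 16329.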
